A study of Homo sapiens with 4 samples.

Results

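The genes described here encode 43 subunits of the chromatin remodellers SWI/SNF and NuRD and of the polycomb repressive complexes PRC2 and PRC1. They were chosen by gene symbol from a fixed list, and all 43 are among the 19775 genes of the deposited table: 17 of SWI/SNF, 13 of NuRD, 7 of PRC2 and 6 of PRC1. No rule on measured values entered the choice, although earlier results of these data were known when it was made. The cells were H1, a wild-type human embryonic stem cell line, cultured in E8, a chemically defined medium supplying insulin, FGF2 and TGFβ. Of the 4 labelled samples, 2 received 1 µM XMD892, an inhibitor of the kinase ERK5, in E8 for 12 h, and 2 were in E8 for 12 h without it. Poly(A) RNA was sequenced as paired reads.

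Values of the 2 treated samples, called replicate 1 and replicate 2, are described. The table's untreated columns carry a culture time that does not match the untreated samples' labels, so the E8 samples were not analysed here, and no value below measures what the compound does. Nothing in the labels tells whether the replicates were separate cultures, and their spread may therefore be technical. The 2 libraries belong to the same group and are set against no other group, so they are described without p-values.

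SWI/SNF complexes use the energy of ATP to slide and evict nucleosomes. Each holds a single ATPase, SMARCA4 or SMARCA2, on a shared core, and accessory subunits make it a BAF, PBAF or non-canonical BAF complex. NuRD joins a remodelling ATPase of the CHD family to histone deacetylases. PRC2 methylates histone H3 at a lysine that marks silenced genes, and PRC1 compacts such chromatin and ubiquitinates histone H2A. In mouse embryonic stem cells the SWI/SNF complex is known to be built around SMARCA4 and SMARCC1, and PRC2 around EZH2.

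Replicate 1 had 18528689 recovered reads and replicate 2 had 20217648. Levels are given in RPKM, the reads of a gene scaled by its exon length and by the reads of its library, with all annotated exons of a gene merged. All 5 markers of pluripotent cells reached 1 RPKM in both libraries, from 29.3 RPKM for NANOG to 1082 RPKM for POU5F1 in the mean. They summed to 1815.4 RPKM in replicate 1 and 2205.5 RPKM in replicate 2, with 3 higher in replicate 2 and 2 in replicate 1. POU5F1 had 734 and 1430 RPKM in replicates 1 and 2, and DNMT3B had 426 and 245 RPKM. The table lists 5 of the 7 neural markers, with 0 at 1 RPKM in both libraries, and of the 4 endoderm markers 1 was listed, at 0.0344 RPKM. The neural markers summed to 3.13 RPKM in replicate 1 and 1.68 RPKM in replicate 2. Of the 6 fibroblast markers 3 were listed, with 1 at 1 RPKM in both libraries, and DCN, LUM and COL3A1 were not listed. The listed fibroblast markers summed to 14.0 RPKM in replicate 1 and 4.93 RPKM in replicate 2. COL1A2 had 6.01 and 3.84 RPKM in replicates 1 and 2, and COL1A1 had 7.85 and 0.987 RPKM. PDGFRA had 0.155 and 0.102 RPKM. The 3 mesoderm markers with a length summed to 1.20 RPKM in replicate 1 and 3.08 RPKM in replicate 2.

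Most of the subunit genes were well expressed. In both libraries 39 of the 43 genes, or 90.7%, reached 1 RPKM, while 59.6% of all genes with a length and 71.3% of the protein-coding genes did so. The median of the 43 genes was 11.8 RPKM, against 2.31 RPKM over all genes and 4.17 RPKM over protein-coding genes. A level of 10 RPKM in both libraries was reached by 24 of the 43, or 55.8%, against 20.5% of all genes with a length. The 4 genes that did not reach 1 RPKM in both libraries were SMARCA2, SMARCD3, BMI1 and CBX7, and each of them has a paralogue or an alternative subunit among the 43 that was at least 8.81-fold higher in both libraries. The genes were ordered alike in the libraries, with Spearman's rho of 0.978 and Pearson's r of 0.968 on log2 RPKM across the 43 genes. Genes of a library share its depth and are not independent replicates. By complex the medians were 18.3 RPKM for NuRD, 11.5 RPKM for SWI/SNF, 9.40 RPKM for PRC1 and 8.33 RPKM for PRC2.

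**Figure D1:**
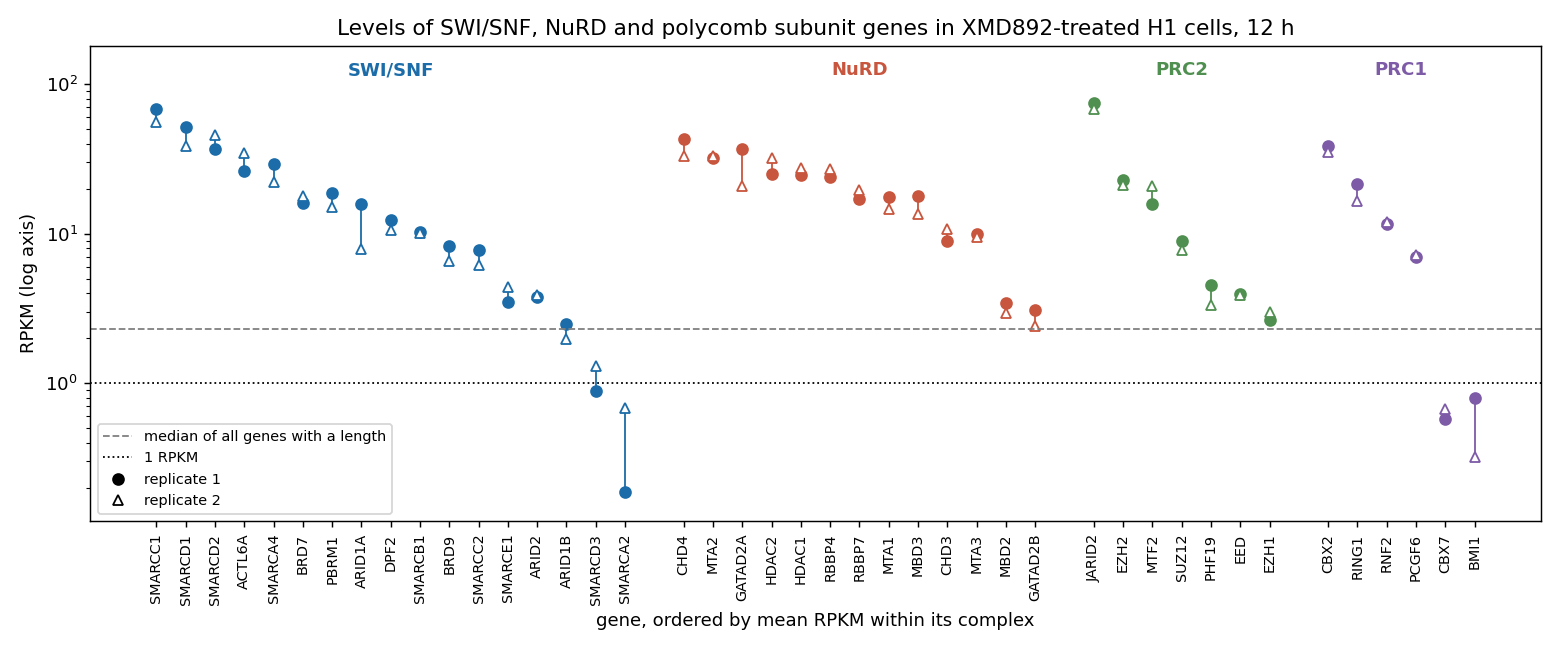
RPKM on a log axis of each of the 43 genes in replicate 1 (filled circles) and replicate 2 (open triangles), grouped by complex and ordered by the mean. The dashed line is the median of all genes, 2.31 RPKM, and the dotted line is 1 RPKM; SMARCA2, SMARCD3, CBX7 and BMI1 have at least 1 library below the dotted line.

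The SWI/SNF ATPase was almost entirely SMARCA4 at the RNA level. SMARCA4 (chromosome 19, 10960825 to 11079426, plus strand, GRCh38) had 8594 reads in replicate 1 and 7109 reads in replicate 2. That is 29.4 RPKM in replicate 1 and 22.3 RPKM in replicate 2, or 25.8 ± 5.03 RPKM (SD, n = 2). SMARCA2 (chromosome 9, 1980290 to 2193624, plus strand) had 65 reads in replicate 1 and 256 reads in replicate 2. Its level was 0.189 RPKM in replicate 1 and 0.681 RPKM in replicate 2, or 0.435 ± 0.348 RPKM, and 25.5% of genes lay at or below it. The ranges of the 2 ATPase genes were far apart. The ratio of SMARCA4 to SMARCA2 was 156-fold in replicate 1, with an exact Clopper-Pearson 95% counting interval of 122 to 202. In replicate 2 it was 32.7-fold, with an interval of 28.9 to 37.2. These intervals do not overlap, so the ratio differed between the libraries by more than counting error, and the direction was the same in both. SMARCA4 made up 99.4% and 97.0% of the summed RPKM of the pair in replicates 1 and 2.

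By merged length this ratio was the widest of the 19 pairs compared in replicate 1, while in replicate 2 CBX2 over CBX7, described with PRC1, was wider. The start regions of the ATPase genes are shown because this pair had the widest mean ratio of the 19 pairs. They were taken from RefSeq on GRCh38.p14, cover 250 bases before and 50 bases after an annotated start, and are written 5′ to 3′ with every CG dinucleotide in capitals. RefSeq gives 2 such regions for SMARCA4, of which the first (chr19:10960780-10961079, plus strand) is printed. It gives 4 for SMARCA2, of which the first (chr9:2015097-2015396, plus strand) and the third (chr9:2157412-2157711, plus strand), an internal start, are printed.
SMARCA4 start: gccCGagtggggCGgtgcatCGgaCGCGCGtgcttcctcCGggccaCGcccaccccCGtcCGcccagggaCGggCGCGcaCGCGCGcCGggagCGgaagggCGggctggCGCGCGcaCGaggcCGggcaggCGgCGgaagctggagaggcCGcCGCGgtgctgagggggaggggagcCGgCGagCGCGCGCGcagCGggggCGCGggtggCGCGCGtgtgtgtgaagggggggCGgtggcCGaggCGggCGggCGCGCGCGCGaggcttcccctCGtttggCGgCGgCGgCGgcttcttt
SMARCA2 first start: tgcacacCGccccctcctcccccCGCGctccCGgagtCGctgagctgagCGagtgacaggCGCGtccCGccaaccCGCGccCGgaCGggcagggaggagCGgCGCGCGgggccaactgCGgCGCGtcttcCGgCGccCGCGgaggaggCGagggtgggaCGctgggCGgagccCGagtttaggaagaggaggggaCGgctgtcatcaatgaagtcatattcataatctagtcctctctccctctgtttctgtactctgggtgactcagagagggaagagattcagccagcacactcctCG
SMARCA2 internal start: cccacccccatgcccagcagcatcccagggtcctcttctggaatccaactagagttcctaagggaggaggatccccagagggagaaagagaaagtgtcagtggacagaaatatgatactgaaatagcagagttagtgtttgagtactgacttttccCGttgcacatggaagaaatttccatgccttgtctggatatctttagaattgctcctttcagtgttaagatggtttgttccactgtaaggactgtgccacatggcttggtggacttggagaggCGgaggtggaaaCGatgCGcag
The motif searched was CG, which reads the same on both strands. The SMARCA4 region held 55, and 0.373% of the 35116 promoters in the table hold as many or more. The first SMARCA2 region held 30, a number that 22.4% of promoters reach, and the internal region held 4, which 75.5% reach. The median over all promoters was 14. Counts per gene do not show which SMARCA2 start was used. The remaining regions of both genes are not printed, and their CG numbers are not given here. Of the 43 genes, 38 had an entry, and the median CG number of their most CG-rich region was 38.5, against 16 over all genes.

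The shared SWI/SNF core was high and paralogue use was uneven. SMARCC1, a scaffold subunit around which the core assembles, was by merged length the highest SWI/SNF gene at 68.6 RPKM in replicate 1 and 56.1 RPKM in replicate 2. Its paralogue SMARCC2 had 7.82 RPKM in replicate 1 and 6.16 RPKM in replicate 2. The pair kept a steady ratio, with SMARCC1 8.77-fold and 9.11-fold higher in replicates 1 and 2. Its size depends on the length rule: the mean was 8.94-fold by merged length, 5.35-fold by longest transcript and 5.11-fold by principal transcript. SMARCD1 and SMARCD2, alternative subunits that bind transcription factors, were close to each other. SMARCD1 had 51.3 RPKM in replicate 1 and 38.6 RPKM in replicate 2, and SMARCD2 had 36.7 RPKM in replicate 1 and 45.8 RPKM in replicate 2. The ranges overlap and the order turned between the libraries, so these levels are not told apart here. SMARCD3, the form known from heart and muscle, was low at 0.893 RPKM in replicate 1 and 1.31 RPKM in replicate 2 (86 and 138 reads), at 1.00% and 1.53% of the summed RPKM of the 3 SMARCD genes. Beside these, the core gene SMARCB1, a tumour suppressor in rhabdoid tumours, stood at 10.3 RPKM in replicate 1 and 10.04 RPKM in replicate 2. SMARCE1, a DNA-binding subunit, stood at 3.50 RPKM in replicate 1 and 4.38 RPKM in replicate 2. ACTL6A, the actin-related subunit of dividing cells, stood at 26.2 RPKM in replicate 1 and 34.4 RPKM in replicate 2. SMARCE1 has 51 annotated transcripts and a merged length of 18680 bases, against 6196 bases for its principal transcript, and so its RPKM may be understated by this length rule.

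Subunits that set the class of SWI/SNF complex were all detected. ARID1A, the large subunit of BAF, had 15.7 RPKM in replicate 1 and 7.85 RPKM in replicate 2. ARID1B, which takes its place in a separate BAF complex, had 2.49 RPKM in replicate 1 and 1.97 RPKM in replicate 2. ARID1A was thus higher in both libraries, 6.33-fold in replicate 1 and 3.98-fold in replicate 2. The size of this ratio depends on the length given to ARID1B, whose merged exons span 44677 bases: with the principal transcript of each gene it was 1.66-fold. DPF2, a BAF subunit that reads histone acylation, stood at 12.4 RPKM in replicate 1 and 10.5 RPKM in replicate 2. Of the PBAF subunits, PBRM1, which carries an array of bromodomains, had 18.6 RPKM in replicate 1 and 15.1 RPKM in replicate 2. ARID2, the DNA-binding subunit of PBAF, had 3.74 RPKM in replicate 1 and 3.90 RPKM in replicate 2. PBRM1 was therefore 4.97-fold and 3.88-fold above ARID2 in replicates 1 and 2. The bromodomain gene BRD7 of PBAF stood at 16.1 and 17.9 RPKM in replicates 1 and 2, and BRD9, which defines non-canonical BAF, at 8.26 and 6.54 RPKM. BRD7 was higher by merged length, but with principal transcripts the ratio was 0.823-fold, so the order of BRD7 and BRD9 is not settled by these data. Another limit for BRD7 is that 42.4% of its exon bases lie in exons of other genes, mainly ADCY7 on the other strand, which had 8 and 14 reads.

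All 13 NuRD genes reached 1 RPKM in both libraries, with means from 2.75 RPKM for GATAD2B to 38.0 RPKM for CHD4. CHD4, the main remodelling ATPase of NuRD, had 10105 reads in replicate 1, the highest count of any of the 43 genes, and 8487 reads in replicate 2. Its level was 42.9 RPKM in replicate 1 and 33.0 RPKM in replicate 2, and that of CHD3 was 8.94 RPKM in replicate 1 and 10.8 RPKM in replicate 2. CHD4 was 4.80-fold and 3.07-fold above its paralogue in replicates 1 and 2. The annotation places 53.5% of the CHD4 exon bases within exons of other genes, chiefly AC006064.6 on the same strand, which was not listed. With exons outside other genes the mean ratio of CHD4 to CHD3 was 8.24-fold, and by principal transcript 5.59-fold, against 3.84-fold by merged length. The deacetylases were level with each other: HDAC1 had 24.8 RPKM in replicate 1 and 27.3 RPKM in replicate 2, and HDAC2 had 25.0 RPKM in replicate 1 and 32.0 RPKM in replicate 2. HDAC2 had far more reads, 7149 and 10015 against 1822 and 2191 for HDAC1, on a merged length of 15461 bases against 3963. HDAC1 and HDAC2 are therefore not told apart per length, with a mean ratio of 0.921-fold by merged length and 1.10-fold by principal transcript.

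Among the scaffold and reader subunits of NuRD, the MBD and GATAD2 pairs were uneven under every length rule. MTA2, of the MTA family that links the deacetylases to the rest of the complex, had 31.9 RPKM in replicate 1 and 33.2 RPKM in replicate 2. MTA1 followed at 17.7 and 14.6 RPKM and MTA3 at 9.93 and 9.46 RPKM in replicates 1 and 2. By principal transcript the 3 MTA genes were level, with shares of 32.8% and 36.2% for MTA2, 31.8% and 27.9% for MTA1, and 35.4% and 35.8% for MTA3 in replicates 1 and 2, so the lead of MTA2 rests on the length rule. MBD3, which has lost the preference of its family for methylated DNA, had 17.8 RPKM in replicate 1 and 13.5 RPKM in replicate 2. MBD2, which binds methylated CpG and occupies the same place in the complex, had 3.44 RPKM in replicate 1 and 2.93 RPKM in replicate 2. MBD3 was 5.17-fold and 4.60-fold higher in replicates 1 and 2, and by principal transcript the mean ratio was 14.0-fold, against 4.87-fold by merged length. GATAD2A, which bridges the MBD and CHD subunits, had 36.6 RPKM in replicate 1 and 20.9 RPKM in replicate 2, while GATAD2B had 3.08 RPKM in replicate 1 and 2.42 RPKM in replicate 2. Thus GATAD2A made up 92.2% and 89.6% of the summed RPKM of the pair. The histone chaperones RBBP4 and RBBP7, which PRC2 also holds, stood at 23.8 and 26.9 RPKM and at 17.1 and 19.4 RPKM in replicates 1 and 2. RBBP4 led RBBP7 by 1.39-fold and 1.38-fold by merged length, yet by principal transcript the mean ratio was 0.521-fold. Reads of RBBP4 can also be shared with 6 annotated pseudogenes that carry its name, none of which was listed.

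Within PRC2 the facultative subunit JARID2 exceeded the core. JARID2, which recruits PRC2 and marks the form called PRC2.2, was by merged exon length the highest of the 43 genes at 74.4 RPKM in replicate 1 and 68.0 RPKM in replicate 2, on 8295 and 8272 reads. The gene is at 15246296 to 15522040 of chromosome 6, plus strand. EZH2, the main methyltransferase, at 148807383 to 148884321 of chromosome 7, minus strand, had 22.9 RPKM in replicate 1 and 21.2 RPKM in replicate 2. EZH1, its paralogue known from non-dividing cells, had 2.64 RPKM in replicate 1 and 3.01 RPKM in replicate 2. EZH2 was 8.68-fold and 7.05-fold higher in replicates 1 and 2, and 8.87-fold higher in the mean by principal transcript. Of the obligate partners of the enzyme, SUZ12 stood at 8.88 RPKM in replicate 1 and 7.77 RPKM in replicate 2. EED, which binds the methylated lysine, stood at 3.94 RPKM in replicate 1 and 3.86 RPKM in replicate 2. By principal transcript the means were 12.1 RPKM for SUZ12 and 12.3 RPKM for EED, so the difference between these partners rests on the length rule. The partial copy SUZ12P1 was listed with 332 and 340 reads, beside 1077 and 1029 for SUZ12, and reads can be split wrongly between them. Of the Polycomb-like subunits that mark PRC2.1, MTF2 had 15.9 RPKM in replicate 1 and 20.9 RPKM in replicate 2, and PHF19 had 4.53 RPKM in replicate 1 and 3.33 RPKM in replicate 2. MTF2 led by 3.51-fold and 6.29-fold in replicates 1 and 2.

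PRC1 genes also showed a wide split between alternative subunits. CBX2, a chromodomain subunit that compacts chromatin, had 38.5 RPKM in replicate 1 and 35.3 RPKM in replicate 2 (4062 and 4054 reads). CBX7, another chromodomain subunit, had 0.579 RPKM in replicate 1 and 0.670 RPKM in replicate 2 (80 and 101 reads). The ratio of CBX2 to CBX7 was 66.6-fold in replicate 1 (interval 53.4 to 84.2) and 52.7-fold in replicate 2 (43.2 to 64.8). In replicate 2 by merged length it thus exceeded the ratio of SMARCA4 to SMARCA2, 32.7-fold, and the counting intervals do not overlap. The intervals given here use merged length only. By longest or principal transcript the mean ratio of CBX2 to CBX7 was 39.7-fold, against 59.2-fold by merged length. In mouse embryonic stem cells, Cbx7 is the chromodomain subunit known to prevail. The E3 ligases RING1 and RNF2, the catalytic subunits, stood at 21.5 and 16.5 RPKM and at 11.5 and 11.9 RPKM in replicates 1 and 2. RING1 was 1.87-fold and 1.39-fold higher per length, although RNF2 had more reads, 870 and 983 against 725 and 608. PCGF6, which belongs to a variant PRC1 active at germline genes, stood at 6.998 RPKM in replicate 1 and 7.15 RPKM in replicate 2. BMI1, a PCGF subunit of canonical PRC1 known for its part in adult stem cells, had 63 reads in replicate 1 and 28 reads in replicate 2, the fewest of the 43 genes. These are 0.794 RPKM in replicate 1 and 0.323 RPKM in replicate 2. The gene shares 1000 exon bases with the readthrough gene COMMD3-BMI1, which was not listed, and its neighbour COMMD3 had 10 reads in each library. How the authors' counting treated reads in shared exons is not given in the sources used here, so the low level of BMI1 is uncertain.

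**Figure D2:**
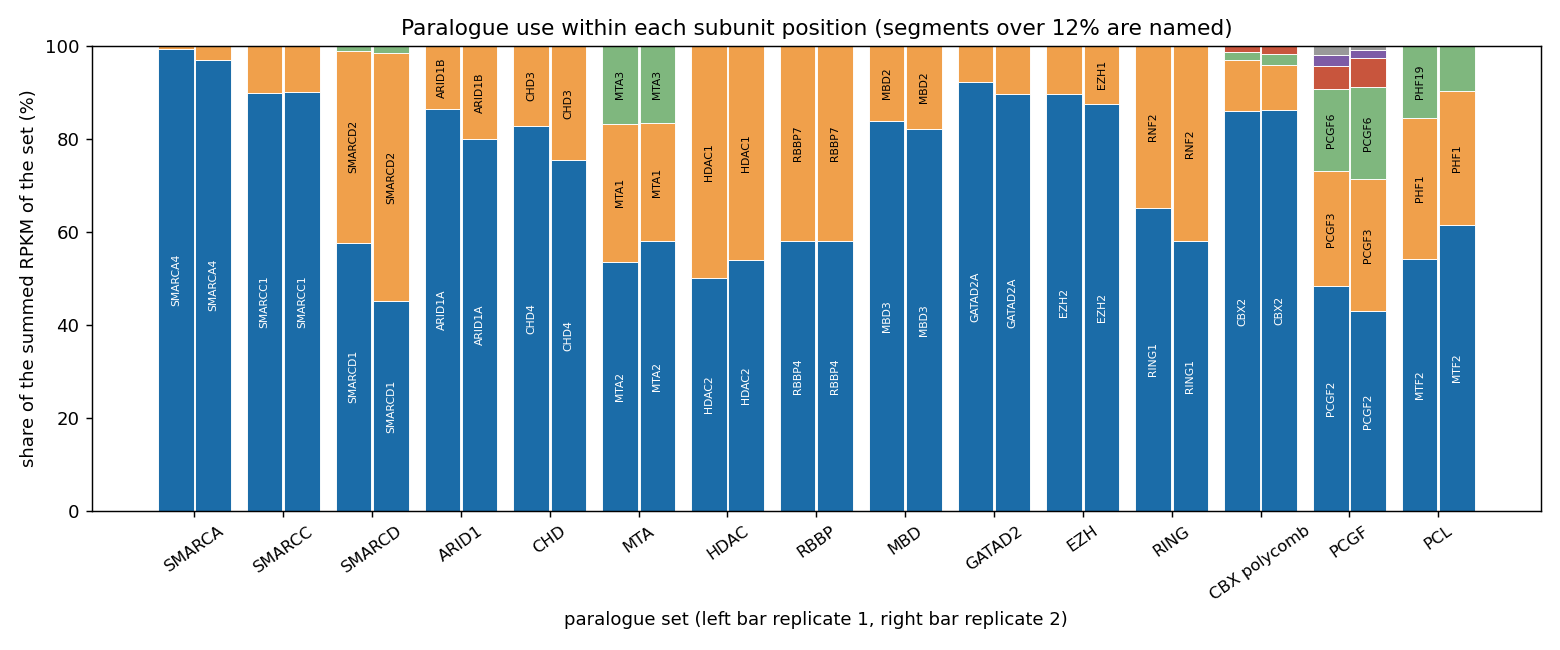
Share of the summed RPKM, in percent, that each paralogue took within its set, with replicate 1 in the left bar and replicate 2 in the right bar of each pair; CBX polycomb, PCGF and PCL sets also include paralogues from outside the 43 genes. SMARCA4, SMARCC1, GATAD2A and EZH2 each filled at least 87.6% of their pair in both libraries by merged length, while HDAC1 and HDAC2 were nearly equal.

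Further subunits of the same complexes were read from lists of gene symbols, also chosen with earlier results of these data known. The table lists 10 of 11 other SWI/SNF genes, with 9 at 1 RPKM or more in both libraries, led by SS18, a BAF subunit fused in synovial sarcoma, at 22.5 ± 0.142 RPKM (SD, n = 2). Its paralogue SS18L1, which replaces it in neurons, stood at 6.37 ± 1.40 RPKM. PHF10, a PBAF subunit, stood at 13.7 ± 3.93 RPKM. DPF1 and DPF3, neuronal counterparts of DPF2, stood at 3.15 ± 1.63 and 0.0522 ± 0.00738 RPKM. ACTL6B, the neuronal counterpart of ACTL6A, was not listed. SS18 and PHF10 were thus higher than SS18L1, DPF1 and DPF3 in both libraries.

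All 7 other NuRD genes are in the table, 6 of them at 1 RPKM or more in both libraries. The highest was CDK2AP1, a small subunit, at 35.7 ± 7.75 RPKM (SD, n = 2), and the lowest was the neuronal ATPase CHD5 at 0.353 ± 0.188 RPKM. SALL4, a zinc-finger factor of pluripotent cells that binds NuRD, stood at 21.1 ± 9.57 RPKM. All 6 other PRC2 genes are in the table, and 5 passed that level. EPOP, a PRC2.1 subunit, led at 13.4 ± 1.04 RPKM, and EZHIP, an inhibitor of PRC2 listed under the older symbol CXorf67, was lowest with 6 and 2 reads. PHF1, the remaining Polycomb-like paralogue, stood at 9.33 ± 0.602 RPKM, between MTF2 and PHF19, and AEBP2, the partner of JARID2 in PRC2.2, at 5.98 ± 0.441 RPKM.

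All 17 other PRC1 genes read here are in the table, and 13 stood at 1 RPKM or more in both libraries. The polyhomeotic gene PHC1 led at 50.8 ± 3.02 RPKM (SD, n = 2), and YAF2 was lowest at 0.113 ± 0.0267 RPKM, while its paralogue RYBP stood at 10.1 ± 0.846 RPKM. Among the 6 PCGF genes, PCGF2, which takes the place of BMI1 in canonical PRC1, had the largest share at 48.2% and 42.9% in replicates 1 and 2. PCGF3 followed at 24.8% and 28.5% and PCGF6 at 17.6% and 19.8%, and BMI1 took 2.00% and 0.894%. Exons of other genes, mainly CISD3 on the other strand with 340 and 381 reads, cover 45.7% of the PCGF2 exon bases. Of the summed RPKM of the 4 polycomb CBX genes CBX2, CBX6, CBX7 and CBX8, CBX2 took 85.9% and 86.3% and CBX6 took 11.1% and 9.60% in replicates 1 and 2. CBX7 and CBX8 each took at most 2.47%. Among the 3 Polycomb-like genes, MTF2 took 54.2% and 61.5% and PHF1 took 30.3% and 28.7%.

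Over the 19 pairs of paralogues or alternative subunits, the ratio within a library kept its direction in both libraries for 18, the exception being SMARCD1 with SMARCD2. For 13 pairs the ratio passed 2-fold in both libraries, and for 11 of these the mean also passed 2-fold in the same direction under each of the other length rules. The 11 include the ATPases SMARCA4 with SMARCA2 and CHD4 with CHD3, the methyltransferases EZH2 with EZH1, and CBX2 with CBX7. Ratios within a library do not depend on the scaling of libraries. Of the 19 pairs, 5 changed direction under some length rule or without a length correction: BRD7 with BRD9, MTA2 with MTA3, HDAC1 with HDAC2, RBBP4 with RBBP7, and RING1 with RNF2.

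**Figure D3:**
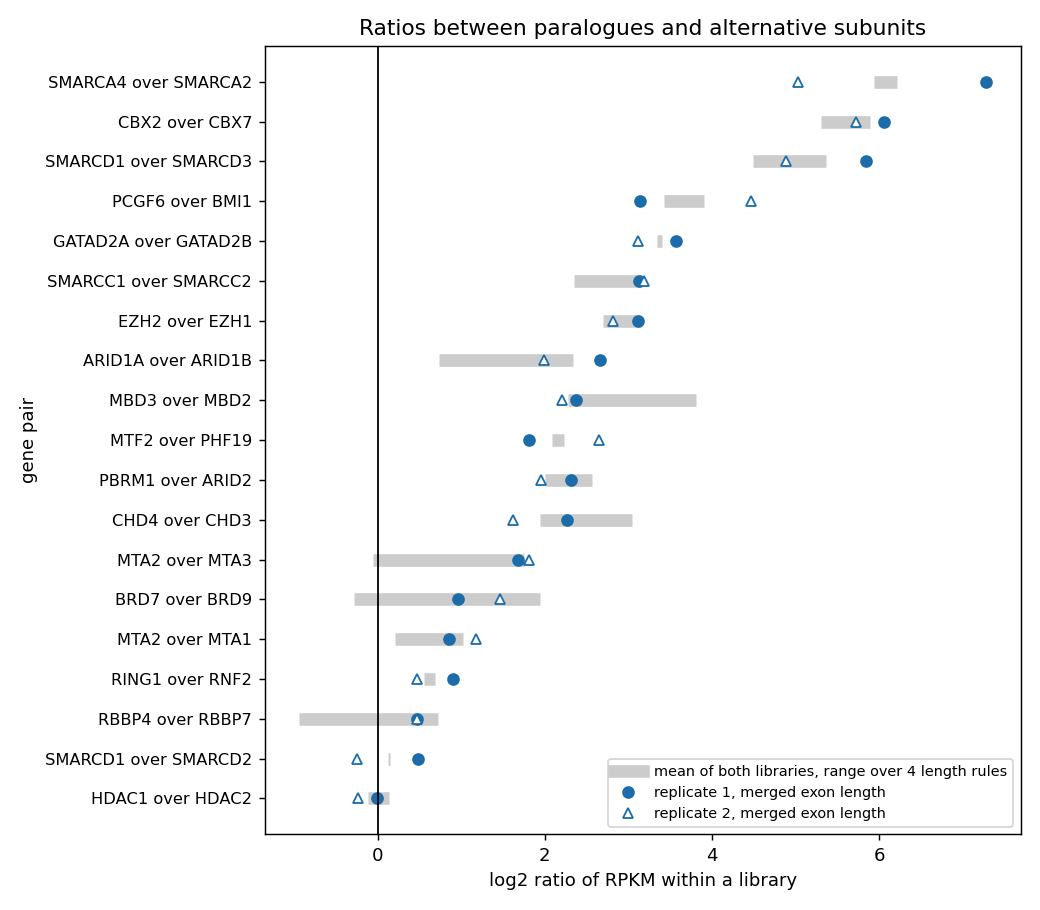
The log2 ratio of RPKM within a library for each of the 19 pairs, in replicate 1 (filled circles) and replicate 2 (open triangles), with a grey bar from the lowest to the highest mean over 4 length rules. SMARCA4 over SMARCA2, at 7.28 and 5.03, stands farthest to the right in replicate 1, CBX2 over CBX7 does so in replicate 2 at 5.72, and the bars of 4 pairs near the bottom cross 0.

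The spread between the libraries was small for most of the 43 genes. The difference is log2(normalized count + 1) in replicate 2 minus replicate 1, a scale that understates differences of low genes, over the 16148 genes whose normalized count averaged at least 10; all 43 genes are among these. At least 2-fold apart were 2 of the 43 genes, or 4.65%, against 10.9% of all such genes. The median size of the difference was 0.26 for the 43 genes and 0.32 for all such genes. With 1 library on each side this describes the libraries and is no test. The 43 genes also had more reads than most, with a median normalized count of 2112 against 384 over all such genes. Of the 43, 21 were higher in replicate 2, and 52.1% of all such genes were; with total reads as the scale SMARCB1, MTA3 and EED turned and the count was 18. The counting interval excluded equal levels for 33 of the 43 genes, or 76.7%, and for 58.1% of all such genes.

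SMARCA2 had the widest gap. It was 3.83-fold higher in replicate 2 (256 reads) than in replicate 1 (65 reads), a log2 difference of 1.94 with a counting interval of 1.56 to 2.37. The share of all such genes at least 2-fold higher in replicate 2 was 4.76%. BMI1 went the other way and was 2.25-fold lower in replicate 2 on few reads, with a log2 difference of -1.17 and an interval of -1.89 to -0.53; 6.14% of all such genes were at least 2-fold lower there. ARID1A followed at -0.90, with 2527 reads in replicate 2 and 4644 in replicate 1, and it passed 2-fold with total reads as the scale. GATAD2A stood at -0.70 and SMARCD3 at 0.65. These 5 genes kept their direction under all scalings tried. SMARCA4, the high paralogue of SMARCA2, differed by -0.30, and SMARCD1, the high paralogue of SMARCD3, by -0.31. By normalized counts PRC2 had the smallest median size of difference of the 4 complexes, 0.09 over its 7 genes. With total reads as the scale this rank was not kept, and the median size was smaller for PRC1. JARID2, EZH2, SUZ12 and EED had intervals that include equal levels. These intervals take the size factors as exact and so depend on the scaling. With total reads as the scale the differences moved to -0.13 for JARID2, -0.11 for EZH2, -0.19 for SUZ12 and -0.03 for EED. The marker sums of pluripotent, fibroblast, neural and mesoderm genes given above also differed between the libraries, and their part in these gaps was not tested.

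**Figure D4:**
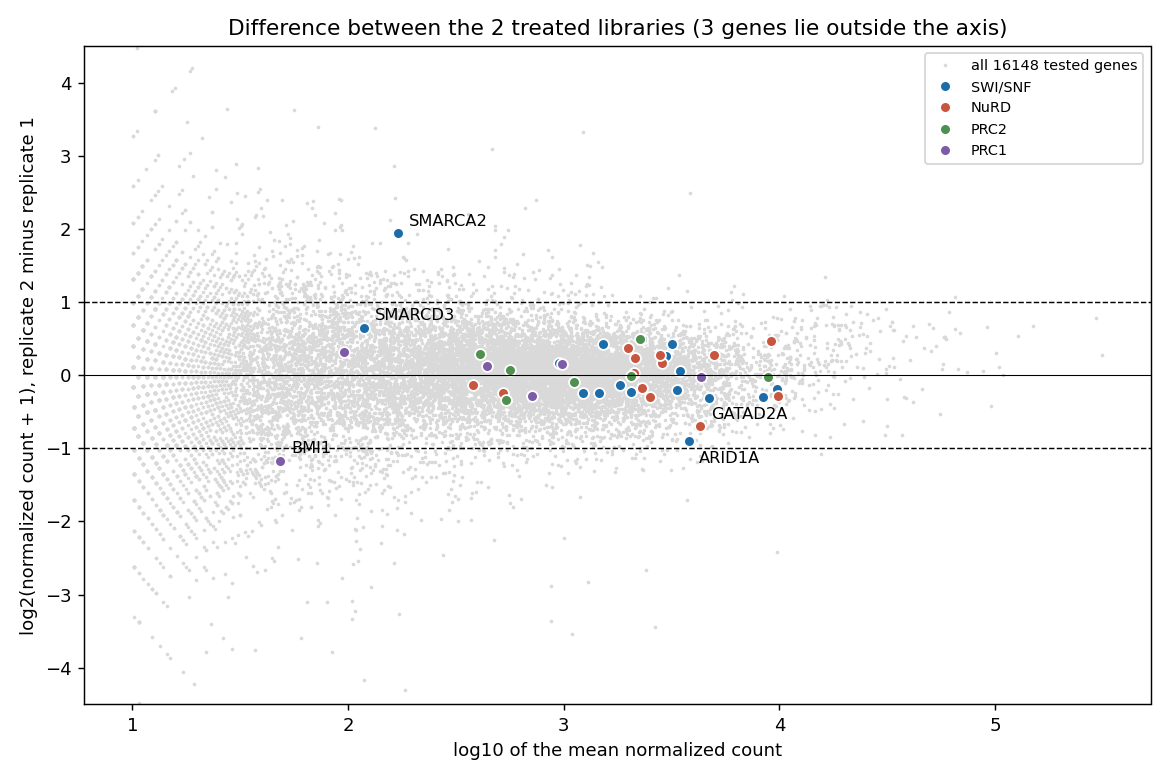
Difference between the libraries, log2(normalized count + 1) in replicate 2 minus replicate 1, against log10 of the mean normalized count for 16148 genes (grey) and the 43 subunit genes (coloured by complex); dashed lines mark 2-fold, and names are given from 1.5-fold on. SMARCA2 at 1.94 and BMI1 at -1.17 are the subunit genes outside the dashed lines.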

How the data were processed

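Poly(A) RNA of H1 cells was measured by paired-end sequencing. The table holds a normalized signal that the authors deposited, namely gene counts scaled by a size factor for each library; this was read from the values. The build hg38 and the tools DESeq2 1.26.0, featureCounts 1.5.3, STAR and Trimmomatic 0.36 appear, per the submitters' processing notes, without roles; neither gene annotation nor strand setting is stated there. All values in the 2 columns used (100%) were whole multiples of 1 step within 0.01 reads, which gave the reads and size factors of 0.932 and 0.948. In all, 7 columns matched no sample's labels and were not used (untreated cells, a further column of treated cells at 12 h, and treated cells at later times), so the planned edgeR test of XMD892 against E8 was not run.

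RPKM used GENCODE release 29 (GRCh38), with merged exons, total recovered reads, and 19262 genes with 1 matching symbol. Counting intervals are exact Clopper-Pearson at 95% and leave out all but counting error, as PCR copies could not be told from separate molecules. Alternatives were the longest transcript, the APPRIS principal transcript, exons outside other genes, TMM (edgeR 4.0.16 in R 4.3.3), total reads, other pseudocounts and minimums, and leaving out a replicate. Read recovery and intervals were tested on simulated data. Python 3.11.15, pandas 2.3.3 and scipy 1.17.1 were used. The 43 genes and the other lists were chosen with earlier results of these data known. All 43 genes were to be described, with both members of each paralogue set in every library. From the other lists the highest and lowest listed genes and paralogues of the 43 were to be named; SALL4, PHF10, AEBP2 and RYBP were added to these. An item of the PRC1 list is not reported here.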

Additional observations from a re-analysis of the deposited data

How the results depend on the processing

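No paired analysis was possible because only treated samples have columns that match their labels. The planned fits of XMD892 against E8 (edgeR, DESeq2, no filter, replicate block) were not run for the same reason. The count of subunit genes reaching 1 RPKM in both libraries was 39 and ran from 39 to 41 under the alternatives, from 39 to 40 when either replicate was left out. The count at least 2-fold apart was 2, was 3 with total reads, and was 1 with a minimum mean normalized count of 50, which removes BMI1. The log2 ratio of SMARCA4 to SMARCA2 was 6.16 in the mean, lay between 5.92 and 6.21 under other length rules and without one, and ran from 5.03 to 7.28 with a replicate left out.

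Levels of whole complexes depend on the length rule. With the longest transcript the median was 21.6 RPKM for SWI/SNF, 33.5 for NuRD, 12.1 for PRC2 and 11.4 for PRC1. With the principal transcript (chosen after seeing the data, as were exons outside other genes) it was 31.6, 44.6, 12.3 and 11.4 RPKM. The median over all 19262 genes was 3.004 RPKM with the longest transcript. With the principal transcript it was 6.36 RPKM, over only the 14503 genes that have such a transcript. NuRD was the highest and SWI/SNF next under all 4 length rules, while PRC1 and PRC2 changed places. With a replicate left out the medians ran from 10.04 to 12.4 for SWI/SNF, 17.8 to 19.4 for NuRD, 7.77 to 8.88 for PRC2 and 9.26 to 9.55 RPKM for PRC1. The log2 ratio changed sign with principal transcripts for BRD7 over BRD9 (-0.28, from 1.21), MTA2 over MTA3 (-0.05, from 1.75), HDAC1 over HDAC2 (0.13, from -0.12) and RBBP4 over RBBP7 (-0.94, from 0.47; -0.15 with the longest transcript). RING1 over RNF2 was -0.48 without a length correction, from 0.69, and SMARCD1 over SMARCD2 ran from -0.25 to 0.48 with a replicate left out. Total reads as the scale moved the median difference of all genes to -0.08, from 0.02. Depth limits BMI1, CBX7, SMARCD3 and SMARCA2, which had 28 to 256 reads in a library.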
